A study of Xenopus laevis with 8 samples.

Results

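The genes described here are the claudins and other tight junction genes of Xenopus laevis, followed in animal cap explants, the ectoderm that forms a mucociliary epidermis in culture. They were chosen by symbol, as every ID with a claudin (cldn) or tight junction protein (tjp) symbol, or with the symbol ocln, f11r, cgn, cgnl1 or marveld2. The rule found 42 IDs of 51017, and the homeologous L and S copies of this allotetraploid frog count separately. Of the 42 there were 28 claudins, 4 tjp scaffolds, 4 copies of ocln and marveld2, 2 of f11r and 4 cingulins. A filter on low counts left 31 IDs for testing, and the other 11 were claudins.

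RNA-seq was made from wild-type, untreated explants that were cut from stage 8 embryos and collected at 4 times, first as blastulae (stage 9) and then during gastrulation (stage 10.5, then stage 11.5, then stage 12.5). Each stage had 2 libraries, titled ExpA and ExpB and here lettered A and B, so 8 in all. No group was manipulated, and every stage shares the cutting, the healing and the saline culture with gentamycin. The number of explants or clutches in a library was not given in the sources used here. Library totals ran between 33170889 and 45511790 counts. The summed level of 15 epidermal ectoderm marker IDs was 19359 and 13517 counts per 1e+06 counts (CPM) at stage 12.5, against 2250 and 2257 CPM at stage 9. Markers of multiciliated cells (9 IDs) summed to 1189 and 656 CPM at stage 12.5, against 62.2 and 106 CPM at stage 9, those of ionocytes (6 IDs) to 499 and 293 CPM, against 16.9 and 23.4 CPM, and those of secretory cells (6 IDs, 1 at 0 in every library) to 312 and 166 CPM, against 0.52 and 0.48 CPM. These lists moved over the same course as the genes below, and their part in the results was not tested. Blood and endothelium markers (5 IDs) summed to between 1.11 and 7.24 CPM, mesoderm markers (13 IDs, 1 at 0 in every library) to between 10.3 and 51.3 CPM, endoderm markers (12 IDs) to between 39.9 and 213 CPM, and neural markers (11 IDs) to between 621 and 1020 CPM. Single IDs did not all follow the sum of their list. In the neural list sox3.S had 571 and 622 CPM at stage 9 and 305 and 362 CPM at stage 12.5. There elavl3.L had 0.731 and 0.805 CPM, then 62.2 and 74.1 CPM. In the ionocyte list foxi1.L rose from 11.3 and 1.85 CPM to 348 and 195 CPM, and dmrt2.S fell from 0.940 and 1.77 CPM to 0.588 and 0.479 CPM. In such bulk samples fewer cells of a type and less RNA per cell cannot be told apart.

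Tight junctions are the apical-most contacts between epithelial cells, and they close the space between neighbours to water, ions and solutes. Claudins are membrane proteins that assemble into the strands of the junction, and the mix of claudins sets which ions pass. Occludin and marveld2 (tricellulin) also lie in the strands, and marveld2 gathers where cells meet at corners. F11r, the junctional adhesion molecule A, is an immunoglobulin-type adhesion protein at the same site. The zonula occludens proteins, tjp1 and tjp3 among them, bind claudins from the cytoplasm and anchor them to actin, and cingulin (cgn) and paracingulin (cgnl1) bind these scaffolds. In the frog embryo, tight junctions already seal the outer surface during cleavage.

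The first question was whether these transcripts differ at stage 12.5 from stage 9, over the whole course. Values are CPM on library sizes scaled by TMM, a factor for RNA composition. A gene was called when its adjusted p was under 0.05 in the quasi-likelihood test of edgeR, after Benjamini-Hochberg adjustment over 28490 genes. The claudin-4 copies rose most in reads among the abundant claudins, cgn.L, ocln.S, marveld2.L and both f11r copies rose too, and both copies of cgnl1, cgn.S, marveld2.S, tjp1.S, cldn6.1.L and cldn5.S fell. Of the 31 tested, 11 were called higher and 8 lower at stage 12.5, which is 61.3%, against 60.8% of all genes tested (31.9% higher and 28.9% lower). Of the 19 called, cldn1.L, cldn10.L, cldn18.L and cldn34.L were under the filter at stage 9 and cldn5.L at stage 12.5. Cldn1.L and cldn34.L were under it at stage 12.5 too. The calls of these genes are not counted as evidence. In a count chosen after seeing the data, over the 25 that passed the filter on both stages, 7 were called higher and 7 lower (28% each), against 27.4% and 37.8% of the 19705 such genes. The median log2 fold change of the 31 was 0.07, against 0.13 over all genes. With the library letter as a block in the model, 13 were called higher and 9 lower, against 69.1% of all genes (36.3% higher and 32.8% lower). Scaled by library size alone, 10 were called higher and 11 lower. The median of all genes also moved down on that scale, from 0.13 to -0.19. The share of all genes called on it is not given here, so these counts are no result about the 31. The libraries of the stages did not overlap for 13 higher and 10 lower genes of the 31, and this held for 42.3% and 37.8% of all genes. Among the 13 were cldn1.L, cldn3.L, cldn10.L, cldn18.L and cldn34.L, under the filter at stage 9. Among the 10 was cldn5.L, under it at stage 12.5.

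Claudin 4, a sealing claudin of epithelia, had the largest rise among the claudins above 10 CPM. The L copy, cldn4.L, had 161 and 109 CPM at stage 9, 914 and 756 CPM at stage 10.5, 953 and 866 CPM at stage 11.5, and 1386 and 1048 CPM at stage 12.5. The stage 9 libraries lay far below all others, and the libraries at stages 10.5 and 11.5 overlapped in range. The S copy, cldn4.S, had 24.3 and 51.3 CPM at stage 9, 328 and 437 CPM at stage 10.5, 303 and 382 CPM at stage 11.5, and 359 and 480 CPM at stage 12.5. Cldn4.L was 9.03-fold higher at stage 12.5 than at stage 9 (log2 fold change 3.17 ± 0.24 SE, adjusted p = 3.35e-05). Cldn4.S was 11.1-fold higher (3.47 ± 0.38 SE, adjusted p = 0.000164). The S copy's log2 fold change was 4.07 without stage 9 library B, and remained past the threshold.

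Summed over the 28 claudin IDs, reads stood at 3299 ± 502 CPM at stage 12.5 and 1771 ± 132 CPM at stage 9 (SD, n = 2 each), with values of 3655 and 2944 CPM against 1865 and 1677 CPM. The difference of the means was 1528 CPM, and the 2 cldn4 copies made 1464 CPM of it, or 95.8% on this scale. All other claudins together had 1663 CPM at stage 12.5 and 1598 CPM at stage 9. Scaled by library size alone, a comparison chosen after seeing the data, the claudin sums were 2987 and 2743 CPM at stage 12.5, against 2032 and 1831 CPM at stage 9. On that scale the cldn4 copies had 1425 CPM at stage 12.5 and 188 CPM at stage 9, and the other claudins 1440 CPM and 1743 CPM, so that the other claudins were lower in sum at stage 12.5, where they were slightly higher with TMM. These sums count reads, which depend on transcript length, and no test was made on them.

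**Figure D1:**
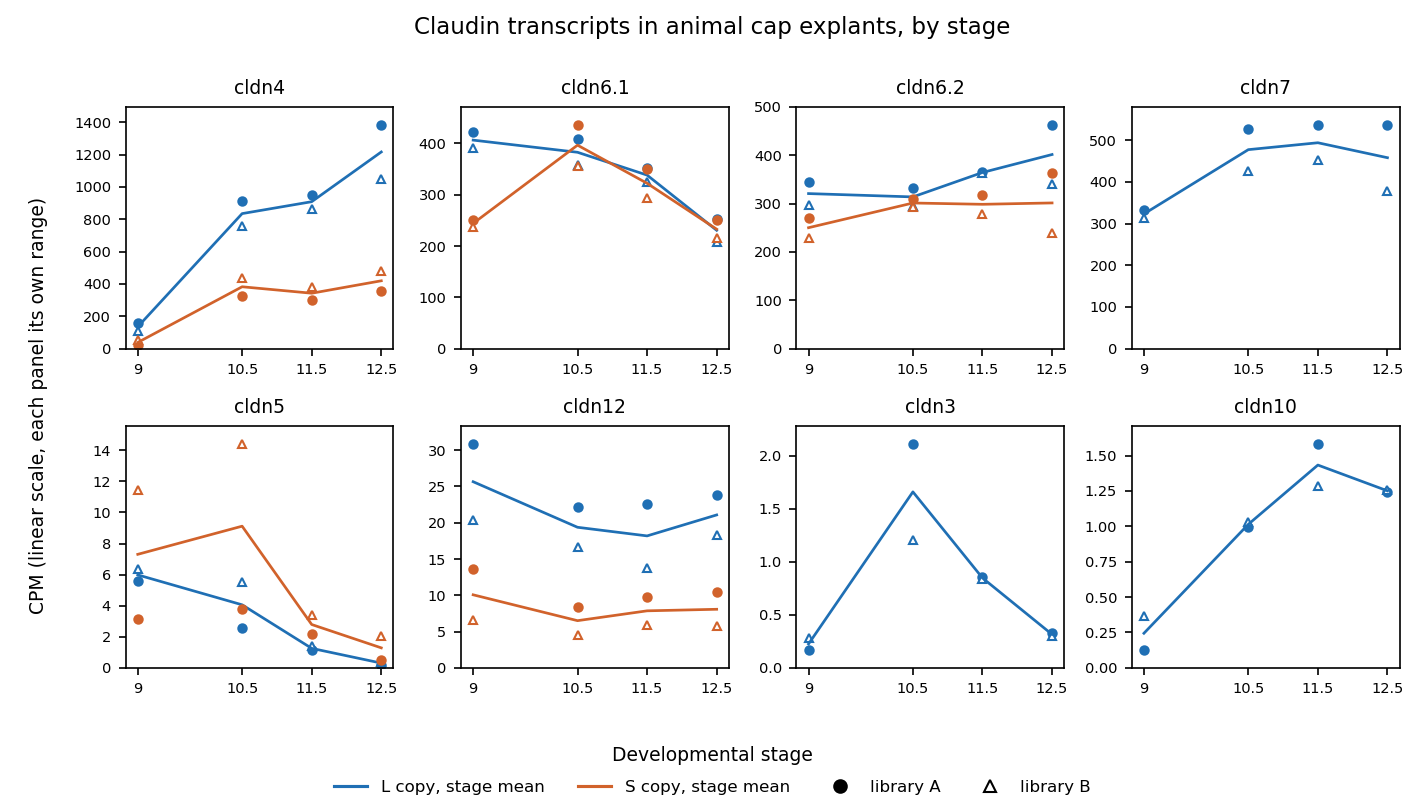
CPM of 8 claudin genes at the 4 stages, with L copies in blue and S copies in orange. Circles are library A, open triangles library B and lines the stage means, and each panel has its own linear range. The cldn4 panels separate stage 9 from all later stages, cldn5 is lowest at stage 12.5, and cldn3.L is highest at stage 10.5.

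The claudin-6 family, known from early epithelia in vertebrate embryos, had transcripts at every stage. Cldn6.1.L had 422 and 391 CPM at stage 9, 408 and 357 CPM at stage 10.5, 352 and 325 CPM at stage 11.5, and 253 and 208 CPM at stage 12.5. Its libraries were lowest at stage 12.5, and it fell by 0.82 ± 0.14 SE on the log2 scale at stage 12.5 against stage 9 (adjusted p = 0.00189). Cldn6.1.S had 252 and 237 CPM at stage 9, 437 and 357 CPM at stage 10.5, 351 and 294 CPM at stage 11.5, and 250 and 216 CPM at stage 12.5. The S copy was high in the middle of the course, and its stage 12.5 and stage 9 libraries overlapped (log2 fold change -0.07 ± 0.16 SE, adjusted p = 0.728). With library size alone as the scale it was called lower at stage 12.5 (-0.39, adjusted p = 0.0257, range over 14 alternatives 0.0257 to 0.958). The other copies of this family, cldn6.2.L, cldn6.2.S and cldn6.S, were not called at stage 12.5 against stage 9 (log2 fold changes 0.32, 0.27 and -0.09). With the library letter as a block, cldn6.2.L passed as higher (adjusted p = 0.0443, range over 14 alternatives 0.028 to 0.958). Without stage 12.5 library B, cldn6.2.L and cldn6.2.S were both called higher, with log2 fold changes of 0.53 and 0.54. The cldn6 genes are closely related, cldn6.1 and cldn6.2 neighbour each other in the RefSeq gene list, and the counting could divide their reads, so their separate levels are uncertain.

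Claudin 7, found widely in epithelia, had 333 and 314 CPM for cldn7.L at stage 9, 528 and 428 CPM at stage 10.5, 536 and 452 CPM at stage 11.5, and 538 and 379 CPM at stage 12.5. All later libraries were above both of stage 9, and the log2 fold change was 0.50 ± 0.20 SE at stage 12.5 against stage 9 (adjusted p = 0.0575). The letter block gave 0.48 ± 0.12 SE, and a call of higher (adjusted p = 0.00599, range over 14 alternatives 0.00599 to 0.366). Claudin 12 had between 13.8 and 30.9 CPM for cldn12.L and between 4.57 and 13.6 CPM for cldn12.S over the 8 libraries. Neither copy was called at stage 12.5 against stage 9 (log2 fold changes -0.28 and -0.32). Library A was above library B at all 4 stages for both.

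Claudin 5, the main claudin of vascular endothelium and the blood-brain barrier in mammals, was lower in both copies. Cldn5.L had 5.60 and 6.36 CPM at stage 9, 2.58 and 5.53 CPM at stage 10.5, 1.13 and 1.37 CPM at stage 11.5, and 0.196 and 0.403 CPM at stage 12.5. Each stage lay below the one before without overlap, with a log2 fold change of -4.29 at stage 12.5 against stage 9, or 19.5-fold lower, and -4.91 without stage 12.5 library B. It was under the filter at stage 12.5 and passed through earlier stages, so the fold is a description. Cldn5.S had 3.13 and 11.5 CPM at stage 9, 3.81 and 14.4 CPM at stage 10.5, 2.20 and 3.37 CPM at stage 11.5, and 0.523 and 2.04 CPM at stage 12.5. Library B was above library A at every stage, and the log2 fold change was -2.49 ± 0.92 SE (adjusted p = 0.0472). The S copy lost its call without stage 9 library B (-1.32), stage 12.5 library A (-1.85) or either stage 11.5 library, with DESeq2's size factors in edgeR, and in a fit of only the 4 libraries compared. Its value was -3.80 without stage 12.5 library B and -3.18 without stage 9 library A. The blood and endothelium markers summed to 1.11 and 1.86 CPM at stage 12.5, against 1.96 and 2.44 CPM at stage 9. At stage 10.5 they summed to 4.78 and 7.24 CPM, and only 1 of the 5 IDs had over 3 counts in every library. Kdr.L overlapped, with 0.784 and 1.61 CPM at stage 12.5 and 1.38 and 1.47 CPM at stage 9. Tal1.L had 0.065 and 0 CPM at stage 12.5, against 0.502 and 0.926 CPM at stage 9. The part of these markers in the result was not tested.

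The scarce claudins began near the floor. Of these, 5 (cldn1.L, cldn3.L, cldn10.L, cldn18.L and cldn34.L) passed the filter only through stages after stage 9. Cldn1.L passed on no stage taken alone, and cldn34.L on stage 10.5 alone. Such a selection can favour a difference from stage 9, so their values are given as a description, without a test. A floor of 3 counts corresponds to between 0.0604 and 0.0980 CPM. Cldn10.L, a claudin that forms paracellular ion channels in mammals, had 0.125 and 0.362 CPM at stage 9, 0.997 and 1.03 CPM at stage 10.5, 1.58 and 1.28 CPM at stage 11.5, and 1.24 and 1.26 CPM at stage 12.5. It was low only at stage 9, with a log2 fold change of 2.34 at stage 12.5, and 1.75 without stage 9 library A and 3.24 without stage 9 library B. Cldn18.L, of a claudin known from lung and stomach in mammals, had 0.251 and 0.161 CPM at stage 9, 1.23 and 3.69 CPM at stage 10.5, 0.912 and 2.03 CPM at stage 11.5, and 0.850 and 2.34 CPM at stage 12.5. Its log2 fold change at stage 12.5 against stage 9 was 2.94, and 2.03 without stage 12.5 library B.

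Cldn34.L had 0.0836 and 0.0403 CPM at stage 9, 0.851 and 0.905 CPM at stage 10.5, 0.268 and 0.627 CPM at stage 11.5, and 0.196 and 1.23 CPM at stage 12.5. The 2 libraries of stage 12.5 lay far apart, and its log2 fold change against stage 9 was 3.48, and 1.62 without stage 12.5 library B. For cldn18.L and cldn34.L library B was the higher at all 3 later stages. The endoderm markers summed to 39.9 CPM in library A and 134 CPM in library B at stage 12.5, and the mesoderm markers to 10.3 and 30.7 CPM. Most of the endoderm gap lay in vegt.L (6.37 and 31.9 CPM) and vegt.S (11.9 and 82.5 CPM). The rest of both lists held markers higher in library A and markers higher in library B. The part of these markers in the levels of these 2 claudins was not tested. Cldn1.L, of the claudin that the skin barrier of mice requires, had no count in either stage 9 library and 20 and 11 counts at stage 12.5. Its mean CPM at stage 12.5 was 7.56 times a floor of 3 counts per library at stage 9. No error of that mean is included.

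Cldn3.L, another sealing claudin, took a different course, with 0.167 and 0.282 CPM at stage 9, 2.11 and 1.21 CPM at stage 10.5, 0.859 and 0.835 CPM at stage 11.5, and 0.327 and 0.302 CPM at stage 12.5. It was highest at stage 10.5 and close to its starting level at the end (log2 fold change 0.48 at stage 12.5 against stage 9). In the RefSeq list of genes for the Xenopus_laevis_v10.1 assembly cldn3.L neighbours cldn4.L.

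The 11 claudins that were not tested are cldn1.S, cldn14.L, cldn15.1.S, cldn15.2.L, cldn16.S, cldn18.S, cldn19.L, cldn19.S, cldn22.L, cldn24.L and cldn34.S. Their highest count in any library was 24, in cldn34.S. Cldn22.L and cldn24.L had no count in any library. Cldn34.S itself had 0.196 and 0 CPM at stage 12.5, against 0.502 and 0.242 CPM at stage 9.

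F11r, the adhesion protein, rose in both copies. F11r.L had 299 and 327 CPM at stage 9, 427 and 439 CPM at stage 10.5, 466 and 535 CPM at stage 11.5, and 531 and 467 CPM at stage 12.5. All stage 12.5 libraries were above all stage 9 ones, with a log2 fold change of 0.67 ± 0.13 SE (adjusted p = 0.00313), and 0.35 with library size alone, where it was still called. F11r.S had 228 and 181 CPM at stage 9, 338 and 251 CPM at stage 10.5, 338 and 298 CPM at stage 11.5, and 390 and 278 CPM at stage 12.5. Its log2 fold change was 0.71 ± 0.22 SE (adjusted p = 0.0261), and the call was lost with library size alone (0.37), without stage 9 library B (0.51) and without stage 12.5 library A (0.43). Library A exceeded library B at every stage for this copy.

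The copies of the MARVEL-domain genes did not move alike. Ocln.S had 147 and 140 CPM at stage 9, 279 and 220 CPM at stage 10.5, 289 and 259 CPM at stage 11.5, and 366 and 303 CPM at stage 12.5. It was lowest at stage 9 and highest at stage 12.5, 2.33-fold higher at the last stage (log2 fold change 1.219 ± 0.163 SE, adjusted p = 0.00048). Ocln.L had 436 and 433 CPM at stage 9, 537 and 390 CPM at stage 10.5, 505 and 367 CPM at stage 11.5, and 516 and 399 CPM at stage 12.5. Its stages overlapped, and the log2 fold change was 0.07 ± 0.22 SE (adjusted p = 0.79).

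Marveld2.L had 37.8 and 61.8 CPM at stage 9, 78.3 and 74.7 CPM at stage 10.5, 88.7 and 86.8 CPM at stage 11.5, and 93.8 and 115 CPM at stage 12.5. Marveld2.S had 82.2 and 79.6 CPM at stage 9, 50.1 and 56.8 CPM at stage 10.5, 38.0 and 42.5 CPM at stage 11.5, and 30.2 and 29.8 CPM at stage 12.5. The L copy was higher at each later stage than at stage 9, and the S copy lower at each stage than at the one before. The L copy was 2.09-fold higher at stage 12.5 than at stage 9 (log2 fold change 1.07 ± 0.23 SE, adjusted p = 0.00511), and the S copy 2.70-fold lower (-1.43 ± 0.14 SE, adjusted p = 9.7e-05).

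Among the zonula occludens scaffolds, 1 of 4 was called at stage 12.5 against stage 9, where 60.8% of all genes were. Tjp1.S (ZO-1) had 56.7 and 46.3 CPM at stage 9, 32.1 and 31.3 CPM at stage 10.5, 21.1 and 23.2 CPM at stage 11.5, and 15.9 and 18.06 CPM at stage 12.5. Every stage lay below the one before, and it was 3.03-fold lower at stage 12.5 (log2 fold change -1.60 ± 0.17 SE, adjusted p = 0.000153).

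Tjp3.L (ZO-3) had 40.7 and 41.0 CPM at stage 9, 37.2 and 36.3 CPM at stage 10.5, 35.7 and 41.9 CPM at stage 11.5, and 40.4 and 44.2 CPM at stage 12.5, a narrow band in all 8 libraries (log2 fold change 0.05 ± 0.14 SE at stage 12.5 against stage 9). Tjp3.S had 57.0 and 47.5 CPM at stage 9, 31.9 and 29.0 CPM at stage 10.5, 32.1 and 28.4 CPM at stage 11.5, and 39.1 and 40.3 CPM at stage 12.5. Its lowest libraries were those of the middle stages, and stage 12.5 against stage 9 gave -0.40 ± 0.16 SE (adjusted p = 0.0599). With the letter block tjp3.S was called lower (adjusted p = 0.0304, range over 14 alternatives 0.00734 to 0.276), and likewise with library size alone (-0.71).

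The cingulin copies did not all move in the same direction. Cgn.L had 45.6 and 41.5 CPM at stage 9, 139 and 121 CPM at stage 10.5, 136 and 171 CPM at stage 11.5, and 207 and 152 CPM at stage 12.5. Cgn.S had 17.7 and 29.3 CPM at stage 9, 6.48 and 9.92 CPM at stage 10.5, 5.31 and 10.3 CPM at stage 11.5, and 3.63 and 4.51 CPM at stage 12.5. Stage 9 stood apart from stage 12.5 for both copies, in opposite directions. Cgn.L was 4.12-fold higher (log2 fold change 2.04 ± 0.20 SE, adjusted p = 9.15e-05) and cgn.S 5.77-fold lower (-2.53 ± 0.42 SE, adjusted p = 0.00147) at stage 12.5.

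Both copies of paracingulin fell. Cgnl1.L had 176 and 120 CPM at stage 9, 59.0 and 35.8 CPM at stage 10.5, 45.6 and 26.7 CPM at stage 11.5, and 21.8 and 21.2 CPM at stage 12.5. Cgnl1.S had 95.1 and 97.0 CPM at stage 9, 19.1 and 18.8 CPM at stage 10.5, 14.9 and 13.1 CPM at stage 11.5, and 6.67 and 9.20 CPM at stage 12.5. The largest step in each was the first. Cgnl1.S was 12.1-fold lower at stage 12.5 than at stage 9 (log2 fold change -3.60 ± 0.20 SE, adjusted p = 1.25e-05) and cgnl1.L 6.88-fold lower (-2.78 ± 0.35 SE, adjusted p = 0.000358).

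**Figure D2:**
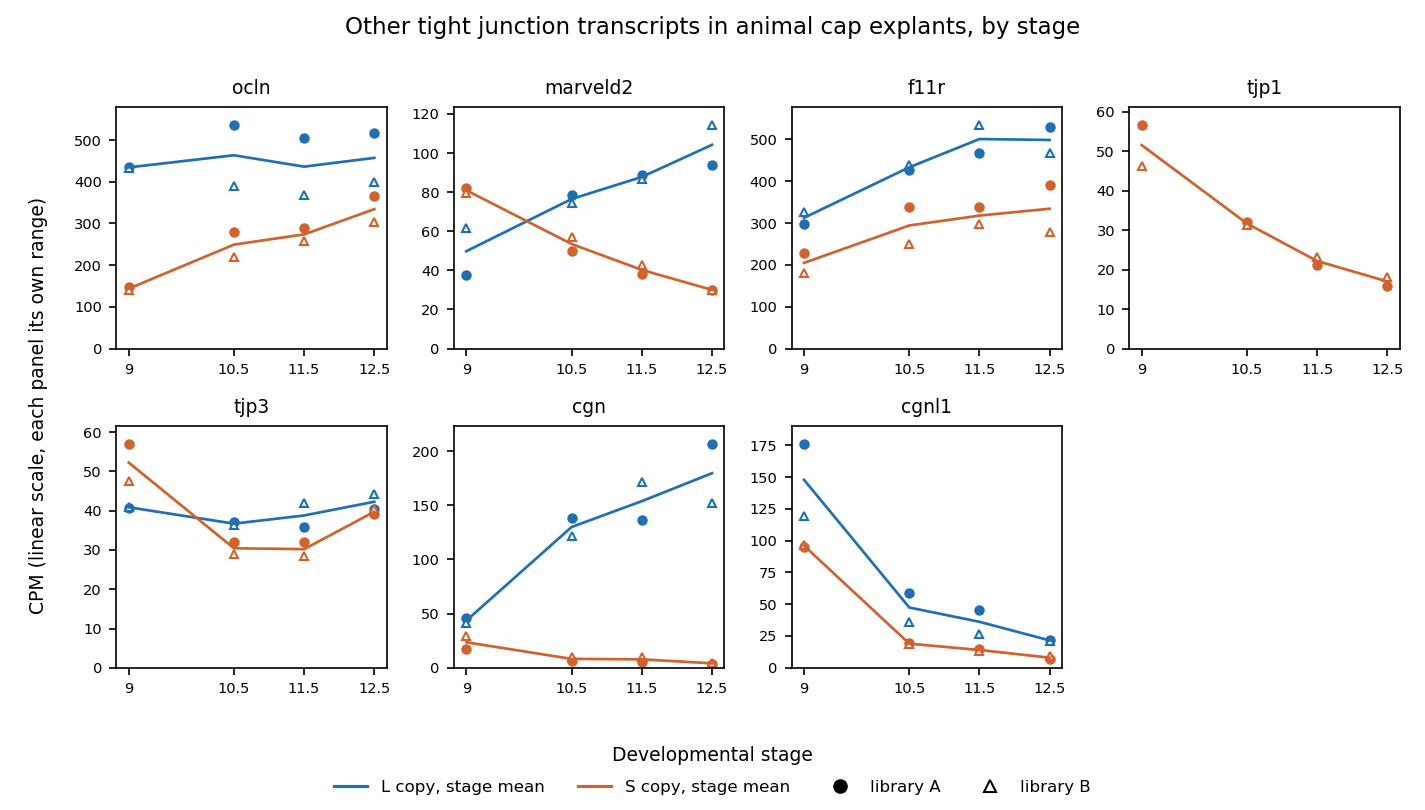
CPM of ocln, marveld2, f11r, tjp1, tjp3, cgn and cgnl1 at the 4 stages, with L copies in blue and S copies in orange. Circles are library A, open triangles library B and lines the stage means, each panel on its own linear range. The L and S lines of marveld2 and cgn run in opposite directions, and both cgnl1 lines are highest at stage 9.

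Stage 10.5 against stage 9 asks how much of this had happened by the start of gastrulation. Both comparisons use the same stage 9 libraries. By stage 10.5, 12 of the 31 were called higher and 6 lower, or 58.1%, against 48.3% of all genes (25% higher and 23.3% lower). Fewer were called when 1 library of these stages was left out. The share of all genes called in those fits is not given here, so this is no result about the 31. The median log2 fold change was 0.41, against 0.11 over all genes. Without 1 library of these stages the median of the 31 was between 0.28 and 0.46. The libraries did not overlap for 17 higher and 8 lower genes (40.5% and 35.8% of all genes). The 5 scarce claudins that were under the filter at stage 9 are among the higher ones. Of the 17 tested claudins, 9 had an unadjusted p under 0.05, a threshold for which the share of all genes is not given here. By adjusted p in edgeR, 9 were called higher and 0 lower. The 5 scarce claudins above make up 5 of these 9, and their calls are not counted as evidence. Over the genes that passed the filter on both stages, 4 of 12 claudins were called higher and 0 lower, and of the 26 tight junction genes 7 higher and 6 lower, or 26.9% and 23.1%, against 19.9% and 31.6% of the 20458 such genes. The letter block called 1 claudin lower, cldn12.S. The authors' deposited table for this pair of stages listed 11 of the 31 as higher and 6 as lower at the same threshold, against 21.7% and 22.6% of all its genes.

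The claudins called higher at stage 10.5 were both cldn4 copies, cldn6.1.S, cldn7.L and the 5 scarce ones that entered only through later stages. Cldn4.L was 6.195-fold higher (log2 fold change 2.63 ± 0.24 SE, adjusted p = 0.000142) and cldn4.S 10.1-fold higher (3.34 ± 0.37 SE, adjusted p = 0.00035). Cldn6.1.S was 1.63-fold higher (0.70 ± 0.16 SE, adjusted p = 0.00853), a call lost without stage 9 library B (0.65) or stage 10.5 library A (0.53). Cldn7.L was 1.48-fold higher (0.56 ± 0.20 SE, adjusted p = 0.0475), a call lost without any 1 of the 6 libraries of stages 9, 10.5 and 11.5. Of the 5 scarce ones, which have no test, cldn3.L, cldn10.L, cldn18.L and cldn34.L had log2 fold changes of 2.87, 2.04, 3.56 and 3.76. Cldn1.L had 8 and 4 counts at stage 10.5. Its mean CPM there was 2.72 times the stage 9 floor of 3 counts per library, with no error of that mean included. Cldn4.S had 3.97, and cldn10.L 2.98, without stage 9 library B, and cldn18.L had 2.57 without stage 10.5 library B.

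Outside the claudins, cgn.L rose 2.98-fold at stage 10.5 (log2 fold change 1.58 ± 0.19 SE, adjusted p = 0.000524) and ocln.S 1.74-fold (0.80 ± 0.16 SE, adjusted p = 0.00552). F11r.L rose by 0.47 ± 0.13 SE on the log2 scale (adjusted p = 0.0203), but lost its call without any 1 of the 4 libraries of stages 9 and 10.5. Cgnl1.S fell 5.07-fold (-2.34 ± 0.19 SE, adjusted p = 0.000101) and cgnl1.L 3.12-fold (-1.64 ± 0.34 SE, adjusted p = 0.00566). Cgn.S fell 2.86-fold (-1.52 ± 0.41 SE, adjusted p = 0.0175), and was not called without stage 9 library B (-1.11) or stage 10.5 library A (-1.26). The S copies of tjp1, tjp3 and marveld2 fell by 0.70, 0.78 and 0.60 on the log2 scale. Tjp1.S was not called without stage 9 library A or either stage 10.5 library, tjp3.S without stage 10.5 library B, and marveld2.S without library A of stage 9 or 10.5.

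With the letter block, 4 more genes were called at stage 10.5 against stage 9, which gave 15 higher and 7 lower, against 58.4% of all genes (30.3% higher and 28.1% lower). Of these 4, f11r.S passed as higher (log2 fold change 0.52, adjusted p = 0.00393, range over 14 alternatives 0.00393 to 0.432). Marveld2.L passed as higher (0.65, adjusted p = 0.0179, range 0.00779 to 0.254). Cldn12.S passed as lower (-0.61, adjusted p = 0.0312, range 0.0312 to 0.998).

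**Figure D3:**
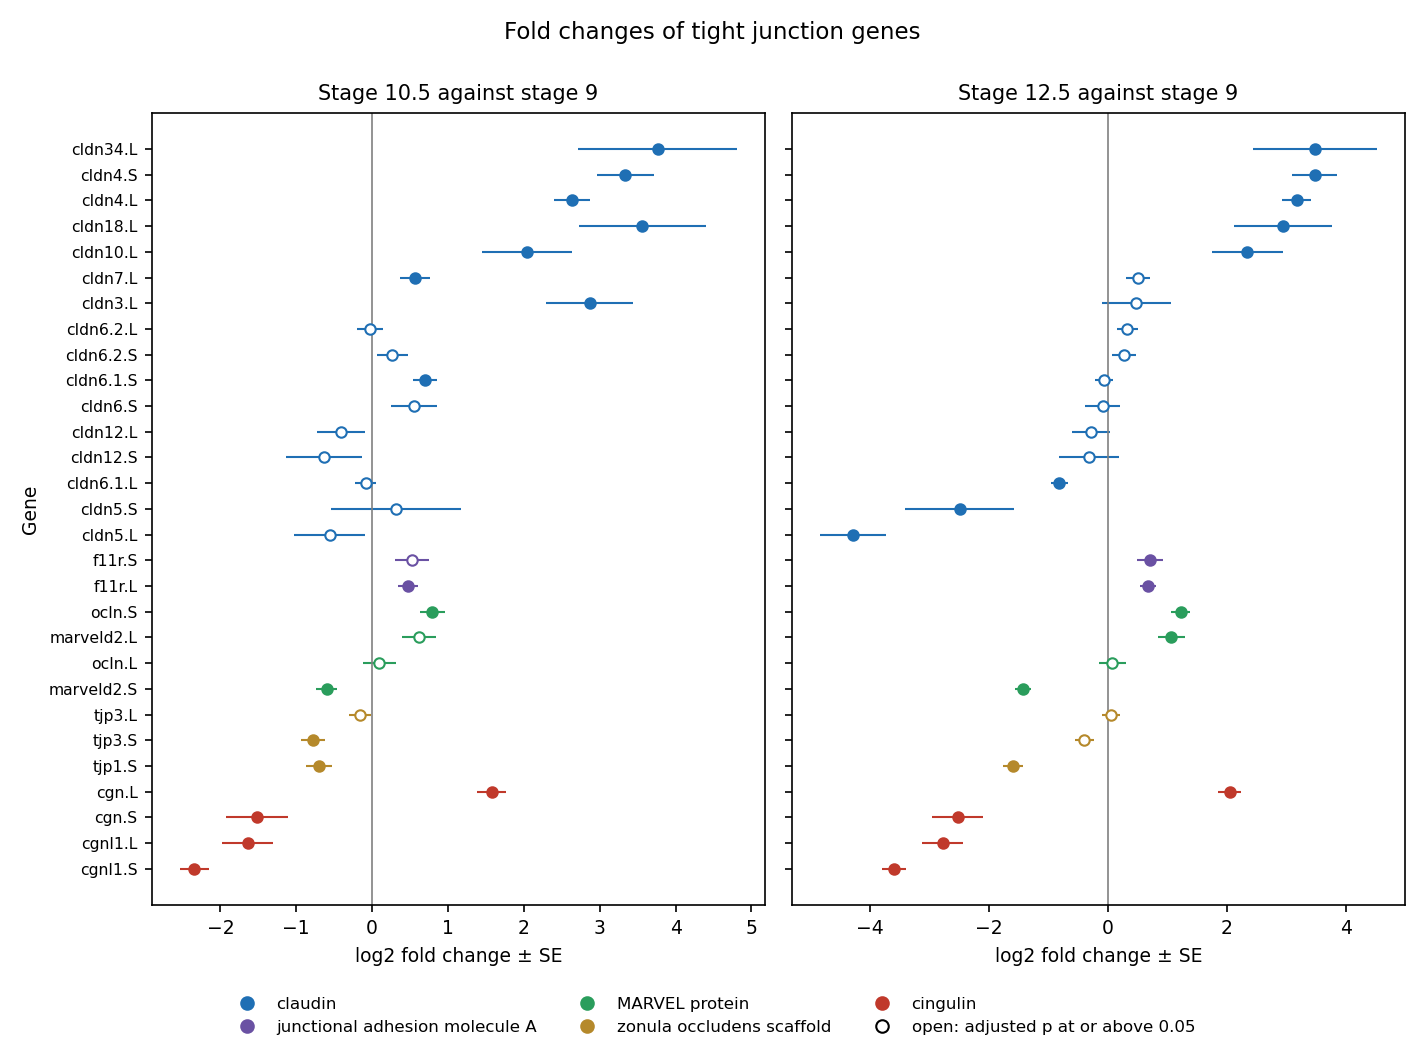
Log2 fold changes (points) with their SE (bars) for 29 of the 31 tested tight junction genes, at stage 10.5 against stage 9 on the left and at stage 12.5 against stage 9 on the right. Colours mark the groups, and open points have an adjusted p at or above 0.05. Cldn1.L is left out because it had no count at stage 9, and 1 more gene is not shown. The points of cldn3.L, cldn10.L, cldn18.L and cldn34.L, under the filter at stage 9, and of cldn5.L, under it at stage 12.5, are descriptions. The 2 cldn4 copies and cgn.L lie right of 0 in both panels and the 2 cgnl1 copies and cgn.S left of it.

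The later steps gave few or no calls. At stage 11.5 against stage 10.5 none of the 31 was called by edgeR's quasi-likelihood test, where 0% of all genes passed. An unadjusted p under 0.05 was found for 4, and the share of all genes at that threshold is not given here. The smallest adjusted p was 0.55, for cldn5.L (log2 fold change -1.70 ± 0.49 SE). DESeq2, the letter block and the authors' deposited table also gave 0 calls among the genes here. The authors' deposited table gave an adjusted p to only 26 of the 31. Of all genes, 0.0737% passed with the block and 1.02% in the authors' deposited table, and the share in DESeq2 is not given here. The libraries of the stages did not overlap for 4 higher and 10 lower genes of the 31 (20.6% and 18.6% of all genes). Cldn34.L, among the 10, passed the filter on stage 10.5 but not on stage 11.5. The median log2 fold change was -0.09, against 0.00 over all genes.

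At stage 12.5 against stage 11.5 edgeR's quasi-likelihood test again called 0 of 31, with 0% of all genes. An unadjusted p under 0.05 was found for 8, and here too the share of all genes at that threshold is not given. The median was 0.01, against 0.00 over all genes. The letter block called 4 lower and 0 higher, against 2.21% of all genes higher and 2.37% lower, or 4.58% in either direction. These were cldn5.L (log2 fold change -2.08), which was under the filter at stage 12.5, cldn6.1.L (-0.56 ± 0.10 SE, adjusted p = 0.026, range over 14 alternatives 0.026 to 0.498), cldn6.1.S (-0.47 ± 0.10 SE, adjusted p = 0.0411, range 0.0411 to 0.642) and cgnl1.S (-0.82 ± 0.18 SE, adjusted p = 0.0411, range 0.0103 to 0.454). DESeq2 called 3 of these lower, all but cldn6.1.S, and its share of all genes is not given here. The stage 12.5 and stage 11.5 libraries did not overlap for any of the 4. Over the 31, 4 higher and 12 lower genes had libraries that did not overlap (22.3% and 21.4% of all genes). The authors' deposited table called 0 of the 27 that it gave an adjusted p, with 3.51% of all its genes. In a joint test of the 4 stages, 19 of 31 differed in the stage fit, against 52.5% of all genes, and 24 with the block, against 64.5%. Among the 19 were cldn1.L, cldn3.L, cldn10.L and cldn18.L, under the filter at stage 9, and cldn5.L, under it at stage 12.5. Cldn34.L, also under the filter at stage 9, joined them with the block. The filter can favour the calls of these genes, so they are not counted as evidence.

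For 11 tight junction genes both copies were tested, which allows the ratio of the L to the S copy to be followed within a library. The ratio was tested over the 4 stages with limma on log2 of (L CPM + 1) / (S CPM + 1), among 4784 pairs. It shifted in 4 of the 11 pairs, cgn, marveld2, ocln and cldn6.1, or 36.4%, against 43.6% of all pairs. The median size of the change at stage 12.5 against stage 9 was 0.69 on the log2 scale, against 0.78 over all pairs.

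The cgn ratio moved most. The L copy had 72.0% and 58.7% of the cgn counts at stage 9, 95.5% and 92.4% of them at stage 10.5, 96.3% and 94.3% of them at stage 11.5, and 98.3% and 97.1% of them at stage 12.5. The log2 ratio was 4.24 ± 0.39 SE higher at stage 12.5 than at stage 9, and the test over the 4 stages gave an adjusted p = 0.000703. The L copy of marveld2 had 31.5% and 43.7% of the counts at stage 9, 61.0% and 56.8% of them at stage 10.5, 70.0% and 67.1% of them at stage 11.5, and 75.7% and 79.3% of them at stage 12.5. Its log2 ratio was 2.49 ± 0.25 SE higher at stage 12.5 than at stage 9, with an adjusted p = 0.00122 over the 4 stages.

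For ocln and cldn6.1 the shift was toward the S copy. The L copy of ocln had 74.8% and 75.6% of the counts at stage 9, 65.8% and 64.0% of them at stage 10.5, 63.6% and 58.7% of them at stage 11.5, and 58.5% and 56.8% of them at stage 12.5 (change in log2 ratio at stage 12.5 against stage 9 of -1.15 ± 0.12 SE, adjusted p over the 4 stages = 0.00123). The L copy of cldn6.1 had 62.7% and 62.3% of the counts at stage 9, 48.3% and 50.05% of them at stage 10.5, 50.1% and 52.5% of them at stage 11.5, and 50.3% and 49.1% of them at stage 12.5 (-0.75 ± 0.09 SE, adjusted p over the 4 stages = 0.00155). The shares of cldn6.1 at stages 11.5 and 12.5 were near those at stage 10.5, whereas those of ocln were lower at each stage than at the one before.

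The ratio of f11r changed by -0.02 ± 0.23 SE and that of cldn12 by 0.00 ± 0.25 SE, and neither was called. The cldn4 ratio was not called either (-0.34 ± 0.53 SE, adjusted p over the 4 stages = 0.696), with an L share of 86.9% in library A and 67.9% in library B at stage 9, and of 79.4% in library A and 68.6% in library B at stage 12.5. With the letter block 7 pairs were called, against 61.6% of all pairs. The 3 added were tjp3 (adjusted p = 0.00978, range over 10 alternatives 0.00978 to 0.295), cgnl1 (adjusted p = 0.00429, range 0.00429 to 0.802) and cldn6.2 (adjusted p = 0.0264, range 0.0264 to 0.338). Reads shared by near-identical copies can be split by the counting, so the shares are those of the assigned reads.

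**Figure D4:**
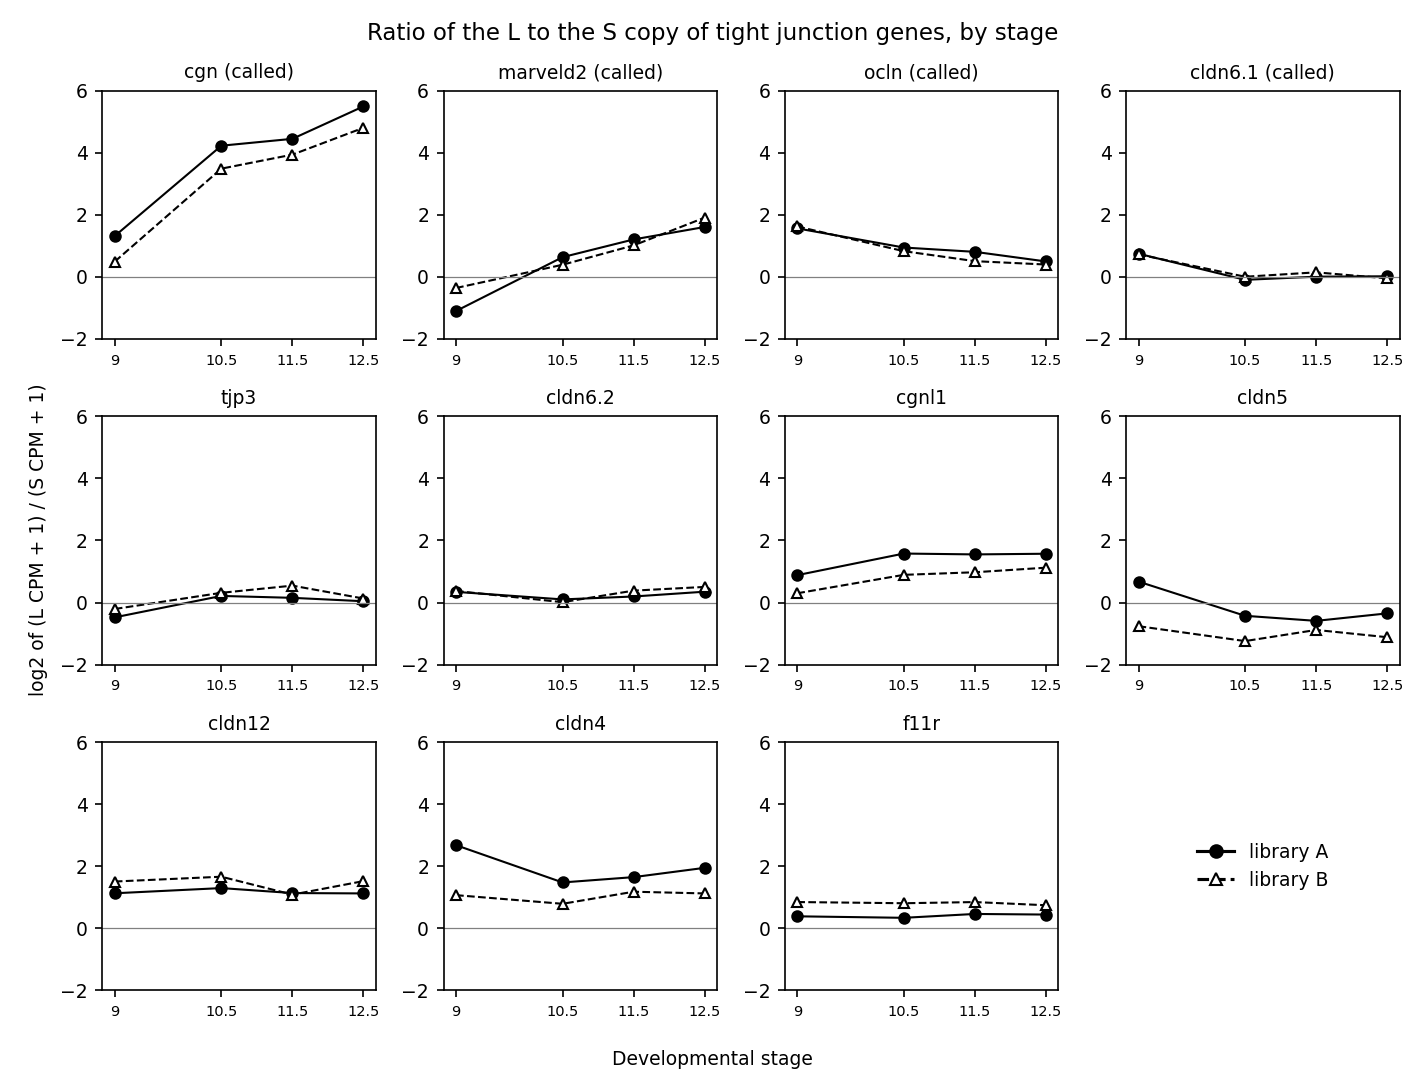
Log2 of (L CPM + 1) / (S CPM + 1) for the 11 pairs at each stage, on a common axis, with library A as filled circles and library B as open triangles. Pairs marked as called differed over the stages at an adjusted p under 0.05. The cgn and marveld2 ratios climb, ocln falls, and cldn6.1 drops between stages 9 and 10.5.

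Other tight junction and polarity genes were read from 4 lists of 46 symbols, of which 36 were found, as 50 IDs with 46 tested. At stage 10.5 against stage 9, 8 were called higher and 20 lower of the 46, against 25% and 23.3% of all genes, and at stage 12.5 against stage 9, 12 higher and 19 lower, against 31.9% and 28.9% of all genes. With the letter block the counts were 8 and 25 (30.3% and 28.1% of all genes), and 13 and 24 (36.3% and 32.8% of all genes). Crb2.S, ybx3.L and esam.L, which are in these block counts, did not pass the filter on both stages. Their calls are not counted as evidence. The median log2 fold changes of the 46 were -0.64 and -0.60, against 0.11 and 0.13 over all genes. The Par and Crumbs complexes, which set apical identity, had 1 higher and 11 lower of 15 at stage 10.5 (25% and 23.3% of all genes), and 2 higher and 10 lower at stage 12.5 (31.9% and 28.9% of all genes). Over genes that passed the filter on both stages, 0 were higher and 11 lower of 14 at stage 10.5, against 19.9% and 31.6% of such genes. At stage 12.5 this count was 1 higher and 10 lower of 14, against 27.4% and 37.8%. Mpp5.S (Pals1, which links Crumbs to its partners) had 42.2 and 42.2 CPM at stage 9, 1.99 and 2.14 CPM at stage 10.5, 1.82 and 1.55 CPM at stage 11.5, and 1.18 and 1.71 CPM at stage 12.5 (log2 fold change -4.86 ± 0.27 SE at stage 12.5 against stage 9, adjusted p = 1.21e-05). Nearly all of its fall lay in the first step. The other copy, mpp5.L, fell less, from 57.2 and 53.5 CPM at stage 9 to 27.9 and 22.1 CPM at stage 12.5 (-1.15 ± 0.18 SE, adjusted p = 0.00107).

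Crb2.S, a Crumbs copy, had 1.37 and 2.87 CPM at stage 12.5, against 0.0418 and 0.121 CPM at stage 9. It was under the filter at stage 9, so its call of higher is not counted as evidence. Of 7 tested tricellular and other membrane proteins 0 were higher and 3 lower at stage 12.5 (31.9% and 28.9% of all genes), among them bves.L (-3.61 ± 0.36 SE). Bves.S was not called in this fit (-1.73 ± 0.99 SE, adjusted p = 0.168). The letter block called 5 lower, bves.S among them (32.8% of all genes). Of 5 tested junctional adhesion molecules, cxadr.L was higher (0.54 ± 0.16 SE) and cxadr.S lower (-1.32 ± 0.16 SE), against 31.9% and 28.9% of all genes. The letter block called 1 higher and 2 lower (36.3% and 32.8% of all genes). Esam.L, among the 2, did not pass the filter on both stages, so its call is not counted as evidence. The 19 tested adaptors and regulators were mixed, with 9 higher and 5 lower at stage 12.5 (31.9% and 28.9% of all genes). Amotl2.S rose 2.75 ± 0.23 SE and magi1.L fell by 3.09 ± 0.19 SE on the log2 scale. Magi1.S was not called in the stage fit (-0.75 ± 0.38 SE, adjusted p = 0.126), but was called lower with the letter block (adjusted p = 0.00162).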

How the data were processed

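A total of 8 libraries of poly-A selected RNA were analysed, 2 at each of 4 stages, from a kit that does not mark strand, per the labels' protocols, so sense and antisense reads cannot be told apart. Reads were aligned with STAR 2.6.0b-1 and counted with featureCounts 1.6.3, per the submitters' processing notes. The genome build was not given in the sources used here, so no coordinates or sequences are printed. The authors deposited raw counts per gene, a table pairing gene IDs with symbols, and DESeq2 tables for successive stages with normalised base means (a signal), log2 fold changes, SE, Wald scores and p-values, made with DESeq2 1.22.1 per the submitters' processing notes.

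Counts were tested with edgeR 4.0.16 in R 4.3.3 (filterByExpr by stage with a minimum count of 10, TMM, glmQLFit on stage alone with all 8 libraries, 4 residual degrees of freedom), which called genes at an adjusted p under 0.05 over 28490 genes. Ratios of copies used limma 3.58.1 with 1 CPM added. IDs with no symbol (2668) took between 1.51% and 1.83% of counts and stayed in library sizes. Alternatives were the letter block, other scalings, no filter, DESeq2 1.42.0, fits of 4 libraries and leaving out each library. The titles hold ExpA or ExpB at every stage. Deviations of same-lettered libraries from stage means correlated at between 0.374 and 0.597 in all 6 pairs of stages. The letters were therefore read as pairing, which the main fit on stage alone leaves out. The correlations come from these data, with 2 libraries a stage, and the labels do not explain what ExpA and ExpB stand for. Nor do they say that libraries came from separate clutches, so p-values measure the spread between these libraries, which may be technical. The test was tried on simulated counts, and the outcome is not given here. Those counts were drawn independently for each library with no effect of the letter, so the trial does not cover the pairing.

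The members and lists were chosen with earlier results of these data known. All members could be named, but 1 scaffold gene counted here is not reported by itself. Values per library were given for the 8 largest called rises and falls at stage 12.5 against stage 9, members called at later steps, members outside the claudins and pairs called for their ratio. Of 42 member symbols, 36 were in the RefSeq gene list. The SE of an edgeR log2 fold change was computed as its size over the square root of the quasi-likelihood F statistic. The SE of a ratio comes from the limma fit. Both include the spread between libraries, whereas floors cover counting error only.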

Additional observations from a re-analysis of the deposited data

How the results depend on the processing

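No direction of a value called in the stage fit reversed under any alternative run. Some values called only in an alternative fit took both signs at stage 12.5 against stage 9. Among these were cldn6.2.L, cldn6.2.S, cldn6.1.S and the ratio of the cldn6.2 copies. With the letter block, which the shared letters pair, 4 genes were lower at stage 12.5 against stage 11.5, where 2.37% of all genes were. The stage fit called 0, with 0% of all genes. DESeq2 called 3 lower, and its share of all genes is not given here. Cldn5.L, under the filter at stage 12.5, was among both the 4 and the 3. The block called 7 homeologous pairs (61.6% of all pairs) instead of 4 (43.6% of all pairs). Leaving out 1 library at a time, genes higher at stage 10.5 against stage 9 numbered 6 to 11 and genes lower 3 to 6, and at stage 12.5 against stage 9 they numbered 8 to 12 and 7 to 8. For these counts without 1 library, the share of all genes called in the same fits is not given here. They are therefore no result about the 31. The median log2 fold change of the 31 genes at stage 11.5 against stage 10.5 was -0.11 with the block and -0.22 with library size alone. This median was between -0.20 and 0.035 without 1 library. At stage 12.5 against stage 11.5 it was -0.17 with library size alone and between -0.30 and 0.065 without 1 library, and at stage 12.5 against stage 9 it was -0.26 and between -0.077 and 0.24. The sign of these medians therefore depends on the scale and on single libraries, and the cause was not tested. Among the 31 genes, the letter block changed no call other than those given above and that of 1 more gene at stage 10.5 against stage 9. With 2 libraries a stage, small changes lie beyond what these data can detect.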

Other observations

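The library letters tracked the levels of many of these genes, a pattern chosen after the values were seen. Library A was above library B at all 4 stages in 13 of the 31 tested genes, or 41.9%, against 16.6% of all genes. Library B was above library A at all 4 stages in 4 of them, or 12.9%, against 17.1% of all genes. Among the 13 were cgnl1.L, cldn12.L, cldn12.S, cldn4.L, cldn6.1.L, cldn6.1.S, cldn6.2.L, cldn6.2.S, cldn7.L, f11r.S, ocln.L and ocln.S. The 4 were cgn.S, cldn4.S, cldn5.L and cldn5.S. The copies of claudin 4 thus differed in opposite directions, with cldn4.L at 1386 CPM in library A and 1048 CPM in library B at stage 12.5, and cldn4.S at 359 CPM and 480 CPM.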
